A study of Mus musculus with 4 samples.

Results

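Runx3 occupancy was described at 8 genes of the Kruppel-like factor (KLF) family that are known for roles in immune cells: Klf2, Klf3, Klf4, Klf6, Klf7, Klf9, Klf10 and Klf13. The 8 genes were chosen by name, with earlier results of these data known, and the other 9 KLF genes are described further below. A peak was counted at a gene when its centre lay in the gene body or within 50 kb of it. By this rule 27 of the 15121 Runx3 peaks of the list belonged to the 8 genes. The cells were CD11chiMHCII+CD4+ DC sorted from spleens of C57BL/6 mice, with a pool of about 15 animals given for each sample. The study describes 2 biological replicate experiments. A polyclonal anti-Runx3 antibody made by the study was used for 2 immunoprecipitates (Runx3 IP), and 2 samples of whole cell extract served as input. The label of 1 input sample gives the strain as C57BL/7, and no treatment or age is given for any sample. The cells were WT, per the study's text. Both Runx3 IP samples were set against both inputs in a single MACS2 call, so each peak has 1 score and no value per replicate. No difference below can therefore be set against a spread between replicates, and no test was made. The list holds positions of bound DNA and no expression, so the cell identity could not be checked on marker transcripts.

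KLF proteins bind GC-rich and CACCC-like DNA through zinc fingers at their C terminus, while their N-terminal parts differ and recruit activators or repressors. In leukocytes they are best known for control of quiescence, migration, differentiation and inflammatory genes. Klf2, Klf4, Klf6 and Klf7 belong to the branch with activator-type N termini, Klf3 to the branch that recruits the corepressor CtBP, and Klf9, Klf10 and Klf13 to the branch that recruits Sin3a. Runx3, a factor of the RUNX family, binds the core sequence TGTGGT as a heterodimer with Cbfb. Hexamers related to it, in which C replaces a T, were counted as well, namely TGCGGT and also CGTGGT, and with both replaced CGCGGT.

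Each of the 8 KLF genes had at least 1 Runx3 peak, and 62.6% of the 22367 protein-coding genes did under the same rule. Of the 9 KLF genes outside the set, 4 had a peak. Klf13 had the most peaks, 7, followed by Klf2 with 5, Klf3 and Klf6 with 4 each, Klf7, Klf9 and Klf10 with 2 each, and Klf4 with 1. Of all protein-coding genes 4.44% had 7 or more peaks, 11.7% had 5 or more, 18.8% had 4 or more and 44.3% had 2 or more. The 2 peaks of Klf7, Klf9 and Klf10 and the single peak of Klf4 were thus common numbers for a gene. The upper quartile of scores in the list begins at 23.2, and peaks of that strength lay at 3 of the genes, Klf2, Klf3 and Klf13. This share is close to the 31.0% of all protein-coding genes with such a peak. A peak centre within 1 kb of an annotated TSS of the gene was found for 6 of the 8 genes, all but Klf3 and Klf9, against 24.2% of protein-coding genes. Peaks centred in the gene body were found for 6 genes, all but Klf2 and Klf9, against 23.2%.

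The windows of the KLF genes were poor in other genes, with a median of 0 other protein-coding genes against 3 over all windows. Only the Klf2 window, with Gm10282 and Eps15l1, and the Klf9 window, with Smc5, held any. For all 27 peaks the nearest protein-coding TSS was that of the KLF gene, whereas this held for 33.5% of the 41372 pairs of a protein-coding gene and a peak in its window. Among the 10713 protein-coding genes with 2 or fewer others in the window, a comparison chosen after the values were seen, 49.3% had a peak, 10.5% had 4 or more, 21.9% had one in the upper quartile and 20% had one within 1 kb of a TSS. Per 100 kb of window the KLF genes had between 0.949 peaks, at Klf4, and 4.87 peaks, at Klf2, with a median of 2.49. The median over all protein-coding genes was 0.880.

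**Figure D1:**
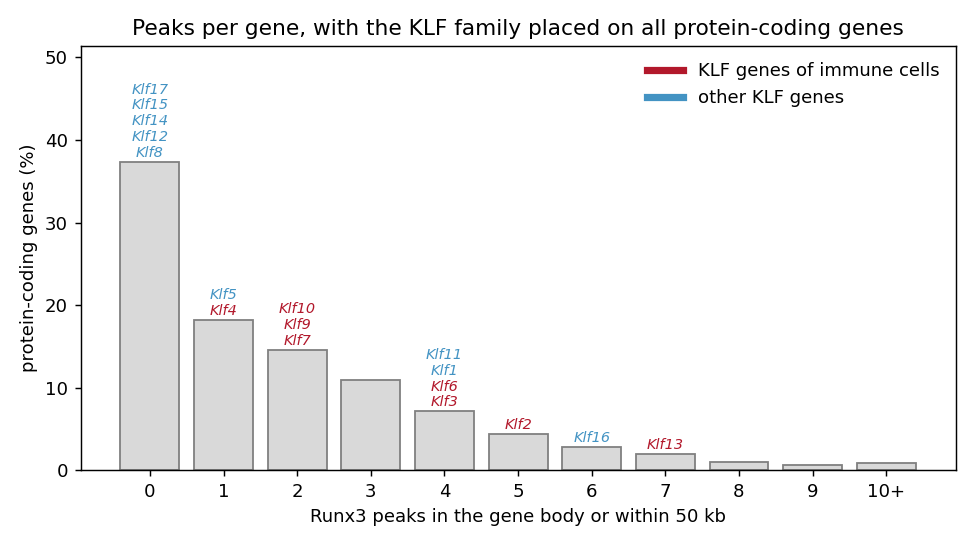
Percentage of protein-coding genes by the number of Runx3 peaks in the gene body or within 50 kb (grey bars, 10 or more joined), with the names of the 8 KLF genes described here in red and of the other 9 KLF genes in blue. The red names start at 1 peak for Klf4 and end at 7 for Klf13, and the 5 blue names over the bar at 0 are KLF genes without a peak.

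Scores of the 27 peaks ran from 3.69 to 65.5, and none ranked among the 100 highest of the list. The score is the number MACS2 wrote for a peak, in a unit that is not stated, and stronger and weaker refer here to this score alone. The median was 19.8 at the KLF genes and 12.1 over all peaks. Of the 27 peaks 18 reached the median of the list and 10 (37.0%) its upper quartile, which holds 25.4% of all peaks. Of these 10 peaks 5 were at Klf13, 3 at Klf2 and 2 at Klf3. The higher median depended most on Klf13: it was 13.4 without the 7 peaks of Klf13, 17.4 without the 5 of Klf2 and 13.4 for the 15 peaks left without either gene. By branch, the median was 13.4 for the 12 peaks of Klf2, Klf4, Klf6 and Klf7, 20.5 for the 4 peaks of Klf3 and 21.5 for the 11 peaks of Klf9, Klf10 and Klf13. Of these 11 peaks 7 were at Klf13, and the 4 at Klf9 and Klf10 scored 3.69, 6.45, 19.8 and 21.5. The median width was 509 bp for KLF peaks and 406 bp for the list.

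**Figure D2:**
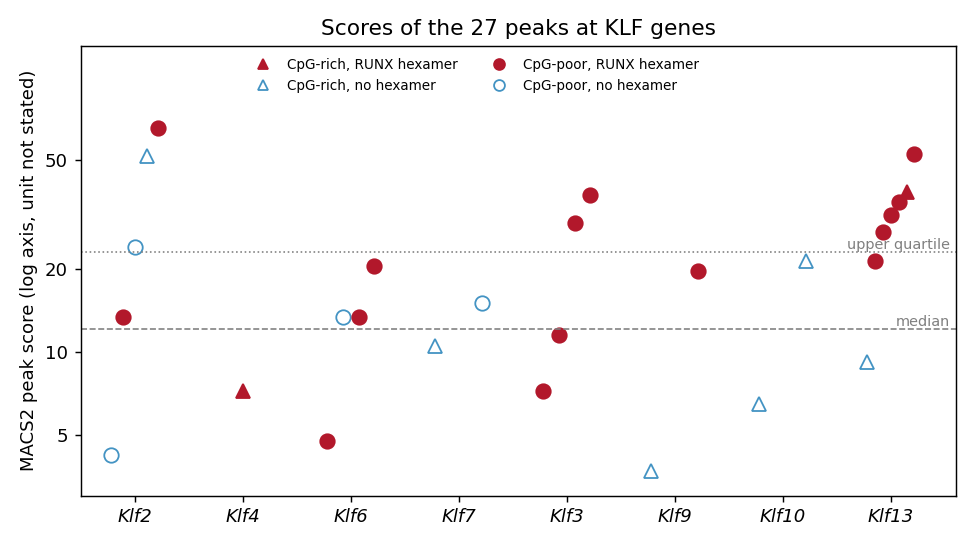
MACS2 score (log axis, unit not stated) of each of the 27 peaks, by gene; filled red symbols hold TGTGGT, open blue symbols do not, and triangles are CpG-rich peaks. The dashed and dotted lines are the median, 12.1, and the upper quartile, 23.2, of the whole list; the peaks above the upper line belong to Klf2, Klf3 and Klf13.

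The hexamer TGTGGT was present on either strand of 17 of the 27 peaks, which belonged to 6 of the genes. Klf7 and Klf10 had none in their peaks. The sequences below show the hexamer in the strongest peak that holds it at Klf2, Klf4, Klf6, Klf9 and Klf13, read 5' to 3' on the strand that carries it, with 20 bases on each side and the hexamer in capitals. They are shown because they are copies of the RUNX core within the best-scoring peaks of these genes. Whether Runx3 was bound at the printed hexamer was not tested. Positions are on mm9, counted from 1, and none overlaps an annotated exon. The hexamer nearest the peak centre whose flanks overlap no exon was taken, 43 bp away for Klf2, 70 bp for Klf4 and 31 bp for Klf9. That of Klf13 was 284 bp from the centre. For Klf6 the one printed was 346 bp away, and the nearer one, beginning at 5863995 and 150 bp from the centre, was passed over because its flank reaches an exon of Klf6.
Klf2 (chr8:74874777-74874822, minus strand): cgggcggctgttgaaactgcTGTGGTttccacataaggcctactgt
Klf4 (chr4:55544311-55544356, minus strand): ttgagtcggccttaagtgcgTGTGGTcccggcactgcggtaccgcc
Klf6 (chr13:5863479-5863524, minus strand): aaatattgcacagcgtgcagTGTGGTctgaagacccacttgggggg
Klf9 (chr19:23267812-23267857, plus strand): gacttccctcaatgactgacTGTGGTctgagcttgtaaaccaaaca
Klf13 (chr7:71056591-71056636, plus strand): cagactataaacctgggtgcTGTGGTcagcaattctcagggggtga

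Klf2, a factor known for quiescence and migration of T cells and for restraint of inflammatory genes in myeloid cells, had the highest score of the 8 genes. The gene lies on chromosome 8 from 74842932 to 74845555, plus strand. Its strongest peak, from 74874445 to 74875068, scored 65.5, at rank 561 of the list and percentile 96.3. It is centred 31825 bp downstream of the 5' end of Klf2, within an intron of Eps15l1, whose own TSS is farther away. A best score at least as high was found for 6.28% of protein-coding genes. Another peak, from 74873810 to 74874358, ended 86 bp before it and scored 24.1 without TGTGGT. Peaks with a neighbor closer than 300 bp make up 4.89% of the list, and 4 of the 27 KLF peaks were of this kind, the pair at Klf2 and a pair at Klf3.

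The 300 bases around the centre of the strongest Klf2 peak are given below on the plus strand. TGTGGT is on the minus strand and appears as ACCACA, in capitals. It occurs 3 times, beginning at 74874797, 74874837 and 74874886, all on the same side of the centre.
Klf2 (chr8:74874607-74874906, plus strand): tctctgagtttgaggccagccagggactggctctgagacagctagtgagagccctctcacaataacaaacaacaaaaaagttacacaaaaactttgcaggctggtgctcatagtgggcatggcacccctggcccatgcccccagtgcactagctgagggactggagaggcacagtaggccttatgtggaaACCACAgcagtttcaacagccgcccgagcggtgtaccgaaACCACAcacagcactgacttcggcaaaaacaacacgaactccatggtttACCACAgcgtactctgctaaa

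The promoter peak of Klf2, from 74842482 to 74843035, covers the 5' end and scored 51.5, at percentile 93.5. It holds no TGTGGT and 1 CGCGGT. It is CpG-rich, with 0.811 times the CpG expected from its base composition, and has 9 overlapping matches to CCNCNCCC, the GC-rich box that KLF proteins bind, on both strands. The 200 bases below run from inside the peak to just upstream of the 5' end. Capitals mark the KLF boxes and the RUNX hexamer, which appears as ACCGCG near the end.
Klf2 (chr8:74842652-74842851, plus strand): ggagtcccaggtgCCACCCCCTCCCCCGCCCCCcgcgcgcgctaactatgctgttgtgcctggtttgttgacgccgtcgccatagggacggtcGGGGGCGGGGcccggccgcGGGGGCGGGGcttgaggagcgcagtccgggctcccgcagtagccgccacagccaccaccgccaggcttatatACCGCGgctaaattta

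The other Klf2 peaks were weaker. The peak from 74846038 to 74846825, past the 3' end of the gene, scored 13.4 and holds 1 TGTGGT at 280 bp from its centre. The peak from 74841333 to 74841677, centred 1427 bp upstream of the 5' end, scored 4.21, at percentile 5.48. Scores within this locus thus ran from near the bottom of the list to near its top. No peak was centred in the short gene body of Klf2.

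Klf4, which is known for monocyte differentiation and for a part of the CD11b+ DC, had the fewest peaks. The gene lies on chromosome 4 from 55540013 to 55545347, minus strand. Its only peak, from 55544092 to 55544435, lies in an intron, 1083 bp downstream of the 5' end, and scored 7.20, at percentile 27. It is CpG-rich (0.809 times the expected CpG) and holds 1 TGTGGT and 1 TGCGGT. The next peak outside the limit was 177234 bp from the gene.

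Klf6, an early response gene that supports inflammatory transcription in macrophages, lies on chromosome 13 from 5860735 to 5869639, plus strand. Its peaks scored 20.6, 13.4, 13.4 and 4.73. The strongest, from 5863475 to 5864220, is in the first intron, 3113 bp downstream of the 5' end, and holds TGTGGT 2 times. The weakest, from 5859960 to 5860288, was centred 611 bp upstream of the 5' end. The peak from 5887334 to 5888313, 27089 bp downstream of the 5' end, was 980 bp wide, and its TGTGGT was 474 bp from the centre. The Klf6 peak from 5844961 to 5845345 holds TGCGGT only.

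Klf7, best known from neurons, has the longest gene of the set (chromosome 1, 64076021 to 64168856, minus strand) and 2 peaks without TGTGGT. The peak from 64168453 to 64168828 was centred 215 bp downstream of the outermost 5' end, scored 10.5 and holds 1 TGCGGT and 1 CGCGGT. It lies upstream of the starts of the other annotated Klf7 transcripts. The peak from 64125094 to 64125437, 43590 bp downstream of that 5' end, scored 15.1 and holds none of the 4 RUNX hexamers. It overlaps an annotated exon of Klf7 and an exon of the noncoding transcript Gm13748.

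Klf3, the CtBP-binding repressor of the set, which has a known role in marginal zone B cells, lies on chromosome 5 from 65194628 to 65221368, plus strand. All 4 of its peaks hold TGTGGT, and none lies at the annotated 5' end. The strongest pair lies past the 3' end of the gene, from 65255772 to 65256196 with a score of 29.5 and from 65256449 to 65256995 with a score of 37.1, separated by 252 bp. They were centred 61356 bp and 62094 bp downstream of the 5' end. The peak from 65204614 to 65204896, in the first intron, scored 11.5 and was centred 1177 bp downstream of the start of a shorter transcript. The peak from 65243848 to 65244112 scored 7.20. In these last peaks the hexamer lay 4 bp and 2 bp from the centre.

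Klf13, known for late expression of the chemokine gene Ccl5 in T cells, had 7 peaks, 5 of them centred in the gene body. The gene lies on chromosome 7 from 71031237 to 71083801, minus strand. The strongest peak, from 71056578 to 71057217 in the first intron, scored 52.6, at percentile 93.8. Peaks from 71070167 to 71070675, 71074827 to 71075345 and 71041726 to 71042339 lie in the same intron and scored 35.2, 31.6 and 21.5. The first of these was centred 665 bp upstream of the start of a shorter Klf13 transcript. These 4 intronic peaks all hold TGTGGT.

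The Klf13 promoter peak, from 71083605 to 71084733, was the widest of the 27 at 1129 bp and scored 38.1. It covers the 5' end, and it holds TGTGGT 2 times, TGCGGT 2 times, CGCGGT 2 times and 11 KLF boxes. It was also the only KLF peak with TGACGT, the motif of the DC factor zDC, which was in 11% of all peaks. The remaining peaks lie 1442 bp downstream of the 5' end, from 71082103 to 71082615 with a score of 9.16, and 45578 bp upstream, from 71129152 to 71129605 with a score of 27.4. The latter holds TGTGGT and was the peak closest to the limit of 50 kb from inside. Just outside the limit lay a peak 54219 bp from Klf3 (score 8.49), one 57268 bp from Klf6 (score 7.84) and one 62763 bp from Klf13 (score 43.1).

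Klf10, a gene induced early by TGF-beta, had 2 peaks, both at its 5' end and both without TGTGGT. The gene lies on chromosome 15 from 38221219 to 38230464, minus strand. The peak from 38230290 to 38231160 covers the 5' end and scored 21.5, and the peak from 38229595 to 38229949, 692 bp downstream in the first intron, scored 6.45. The former holds CGCGGT 2 times, CGTGGT once and 8 KLF boxes, the latter CGCGGT 2 times and 5 KLF boxes. Klf9, a glucocorticoid-induced factor on chromosome 19 (23215716 to 23241401, plus strand), had a weak peak from 23210334 to 23210663, 5217 bp upstream of the 5' end, with a score of 3.69. Its stronger peak, from 23267630 to 23267978, lies 52088 bp downstream of the 5' end, scored 19.8 and holds TGTGGT 2 times.

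**Figure D3:**
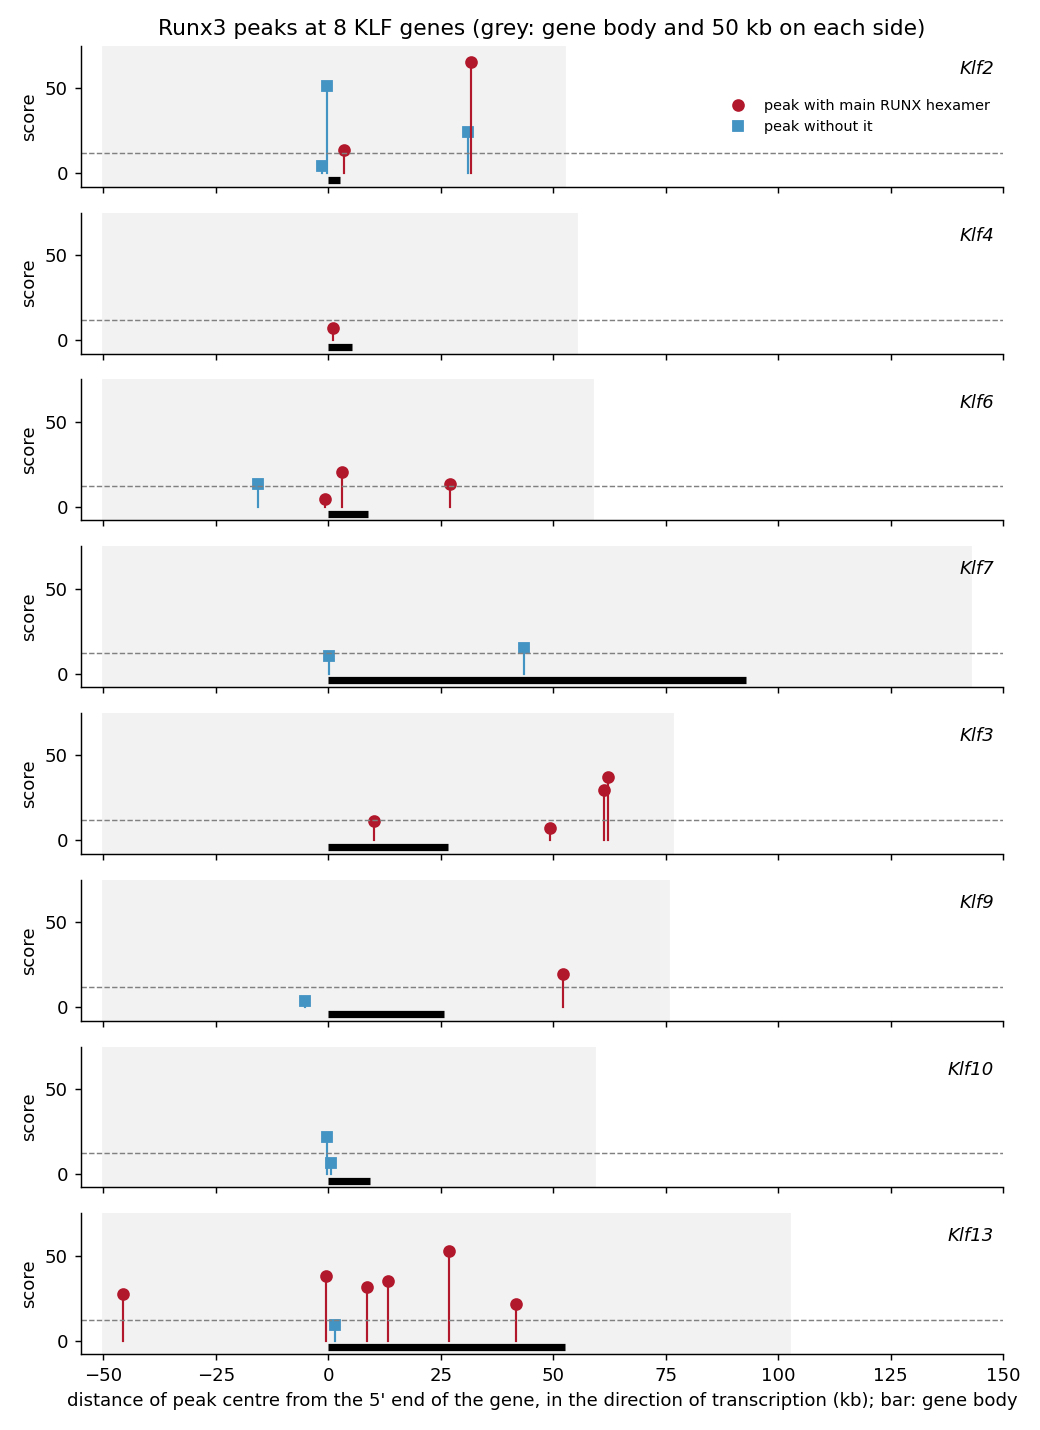
MACS2 score of each Runx3 peak at the 8 KLF genes against the distance of its centre from the 5' end of the gene in kb, positive in the direction of transcription; black bars are gene bodies, grey areas the windows searched, and the dashed line is the list median of 12.1. Red circles are peaks with TGTGGT and blue squares peaks without it. Klf10 has both peaks next to its 5' end, Klf13 has peaks along the gene, and the highest peaks of Klf2, Klf3 and Klf9 lie past the 3' end.

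The CpG-rich peaks without TGTGGT carry other RUNX hexamers at Klf2, Klf7 and Klf10, printed here with 20 bases on each side to set their cores beside those above. These are the hexamers nearest the peak centre that do not overlap an exon.
Klf2 promoter (chr8:74842816-74842861, minus strand): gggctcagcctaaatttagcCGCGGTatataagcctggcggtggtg
Klf7 promoter (chr1:64168597-64168642, plus strand): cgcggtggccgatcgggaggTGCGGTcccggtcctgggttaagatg
Klf10 promoter (chr15:38230768-38230813, plus strand): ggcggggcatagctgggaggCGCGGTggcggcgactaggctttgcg

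Split by CpG content at 0.6 times the expected CpG, a limit chosen after the values were seen, 8 of the 27 peaks were CpG-rich. They were the promoter peaks of Klf2, Klf7, Klf10 and Klf13, the intronic peaks near the 5' ends of Klf4, Klf10 and Klf13, and the upstream peak of Klf9. TGTGGT was in 2 of these 8 (25%, Wilson 95% interval 7.15% to 59.1%) and in 15 of the 19 CpG-poor peaks (78.9%, 56.7% to 91.5%). The whole list showed the same split, with TGTGGT in 26.6% of CpG-rich and 66.0% of CpG-poor peaks. When the 3 related hexamers were counted as well, 6 of the 8 CpG-rich (75%) and 16 of the 19 CpG-poor peaks (84.2%) held a RUNX hexamer, against 76.2% and 76.7% in the list. CGCGGT was in 5 of the 8 CpG-rich peaks (62.5%, 30.6% to 86.3%) and in 0 of the 19 others (up to 16.8%), against 34.9% and 2.62% in the list, both inside these intervals.

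In all, TGTGGT was in 63.0% of the KLF peaks (44.2% to 78.5%, Wilson 95%, counting error alone) and in 54.0% of all peaks, a value inside that interval. Windows of equal width 10 kb downstream were taken toward higher mm9 coordinates, whatever the strand of the gene. They held TGTGGT in 12 of 27 cases at the KLF genes (44.4%) and in 30.9% over the list. Any of the 4 RUNX hexamers was in 81.5% of the KLF peaks and 76.6% of all peaks. The KLF box CCNCNCCC was in 15 of the 27 peaks (55.6%), 14 of the 27 downstream windows and 50.3% of all peaks. Of the CpG-rich KLF peaks 6 held it (75%), and 75.9% of CpG-rich peaks of the list did. The ETS core GAGGAA was in 13 peaks (48.1%), 11 downstream windows (40.7%) and 53.6% of all peaks, and the AP-1 site TGANTCA in 4 peaks (14.8%), 6 downstream windows (22.2%) and 13.2% of all peaks. All motifs were searched on both strands. For each of these motifs the share in the whole list lay inside the Wilson 95% interval of the KLF peaks.

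**Figure D4:**
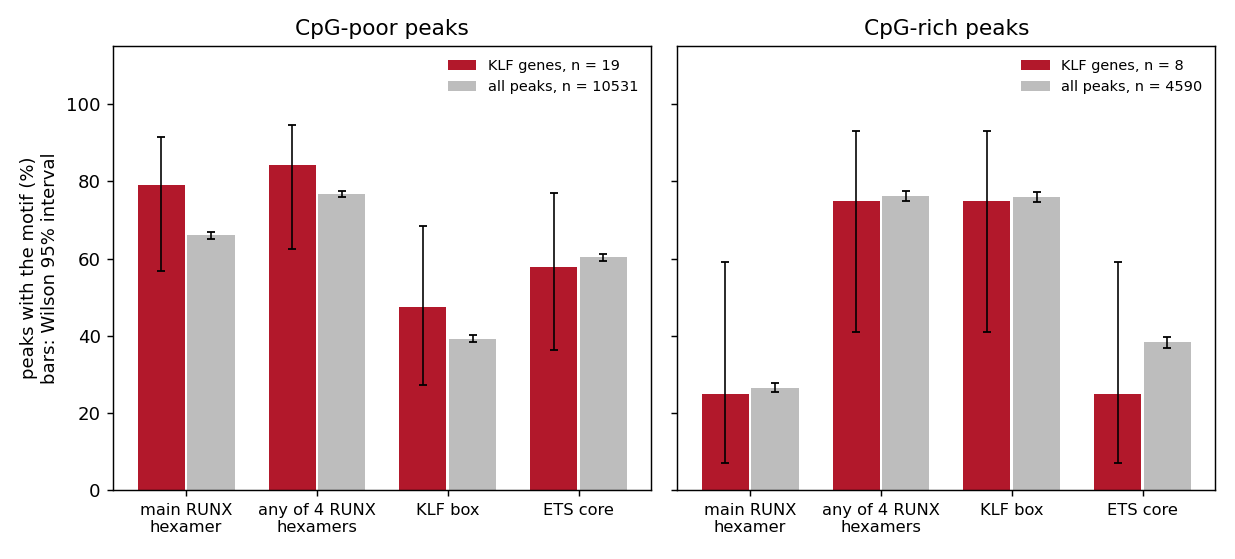
Percentage of peaks with the main RUNX hexamer TGTGGT, any of the 4 RUNX hexamers, the KLF box CCNCNCCC and the ETS core GAGGAA, in CpG-poor (left) and CpG-rich (right) peaks at the KLF genes (red) and in the whole list (grey), with Wilson 95% intervals. The main hexamer was in 78.9% of the 19 CpG-poor and 25% of the 8 CpG-rich KLF peaks, and the intervals of the red bars reach the grey bars throughout.

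Peaks farther than 10 kb from the nearest protein-coding TSS numbered 12, with a median score of 22.8, and the 15 closer ones had a median of 11.5. Over the whole list the medians were 12.4 and 12.0. Of the 12 distal KLF peaks 6 were in the upper quartile, all at Klf2, Klf3 and Klf13. The distal peaks at Klf6, Klf7 and Klf9 scored 13.4, 13.4, 15.1 and 19.8. TGTGGT was in 9 of the 12 distal peaks (75%) and 8 of the 15 others (53.3%), against 66.2% and 45% in the list. The median score was 21.5 for the KLF peaks that hold TGTGGT and 12.0 for the others, against 14.2 and 10.5 in the list. Of the 10 KLF peaks in the upper quartile 8 held the hexamer. The exceptions were the Klf2 promoter peak and the weaker peak of the Klf2 pair.

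Of the other KLF genes Klf1, Klf5, Klf8, Klf11, Klf12, Klf14, Klf15, Klf16 and Klf17, 4 had at least 1 and 5 had none, against the background of 62.6%. Klf1 and Klf11 had 4 peaks each and Klf16 had 6, with best scores of 20.6, 42.1 and 121. Their windows hold 6, 3 and 7 other protein-coding genes, and the KLF gene had the nearest TSS for 1 of the 4 Klf1 peaks, 2 of the 4 Klf11 peaks and 1 of the 6 Klf16 peaks. The 15 peaks of this list had a median score of 11.7, and 5 of them held TGTGGT.

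In the SP family, the closest relatives of the KLF proteins, 6 of 9 genes had a peak, against 62.6% of all protein-coding genes. Sp1 and Sp2 had 6 peaks each and Sp6 and Sp7 had 5 each, in windows with 5 or 6 other coding genes, and the neighbors Sp1 and Sp7 as well as Sp2 and Sp6 share some of these peaks. Among 10 genes of cofactors and regulators that bind KLF proteins, 8 had a peak, against the same 62.6%. Their median was 0.461 peaks per 100 kb of window, below the 0.880 of all protein-coding genes. Ep300, an acetyltransferase, had 6 peaks and Hdac1, a deacetylase, had 3. Ep300 had the nearest TSS for 3 of its 6 peaks. Hdac1 had it for 1 of 3, in a window with 7 other coding genes. Of 6 genes known to respond to Klf2 in leukocytes 4 had a peak, against the same 62.6%. Itgb7, an integrin chain, had 5, Ccr7, a chemokine receptor, had 4 and Cdkn1b, a cell cycle inhibitor, had 4. Itgb7 had the nearest TSS for 1 of its 5 peaks, in a window with 4 other coding genes. Ccr7 had it for all 4 of its peaks and Cdkn1b for 3 of 4. No peak was called at S1pr1, a receptor of lymphocyte migration. Median scores were 12.2 in the SP family, 13.4 in the cofactors and 10.9 for peaks at the genes that respond to Klf2.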

How the data were processed

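Runx3 ChIP-seq was analyzed from a single deposited list of peaks. Per the labels, the submitters' processing notes and the study's methods, 50 bp reads were aligned uniquely to mm9 with Bowtie and peaks were called with MACS2, after CASAVA 1.8; versions of Bowtie and MACS2, the threshold and the handling of duplicates are not given in the sources used here. The deposited peak score is the value the authors' MACS2 call wrote for both Runx3 IP against both whole cell extract samples, in a unit not stated, and was used to rank and compare peaks within the list. Reads and coverage per sample were not analysed here, so a missing peak means only that none was called.

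Genes came from GENCODE M1 and sequence from NCBIM37, the assembly of mm9. Distances were taken from peak centres to protein-coding transcripts or to the 5' end of the gene. CpG content is the observed over the expected number from C and G counts. Each motif was looked for over the full peak on either strand, and in windows of equal width 10 kb downstream. For these windows downstream means toward higher mm9 coordinates, whatever the strand of the gene. Overlapping matches were each counted. Intervals of shares are Wilson 95% intervals. The interval of the median score was taken from the ranked scores with the binomial distribution. Both kinds treat the peaks as independent. The member genes and all gene lists were chosen with earlier results of these data known. The split by distance from a TSS, like that by CpG content, was made after the values were seen. Named genes were the 8 members, each of their peaks, and genes of the other lists with 3 or more peaks. Also named were neighbors at the peaks or in the windows, the other KLF genes as a list, and S1pr1, which had no peak. The counting of peaks in gene windows was tested on simulated data. For motifs, only planted copies of TGTGGT were looked for, by a pattern search written for that check. This does not test the other motifs or false matches. The scripts ran in Python 3.11.15 with pysam 0.24.0 for sequence, pandas 2.3.3 and numpy 2.4.6 for tables, scipy 1.17.1 for intervals and matplotlib 3.10.9 for figures. A gene of 1 list and a sequence are not reported here.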

Additional observations from a re-analysis of the deposited data

How the results depend on the processing

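Alternatives changed the score filter, the distance, the part of the peak that counts, the assignment rule and the motif. Peaks with a score at or above 23.2 left 3 KLF genes and 10 peaks, with a median score of 36.1 and TGTGGT in 80.0%. The gene body alone held 11 peaks, and regulatory domains of protein-coding genes, which extend up to 1000 kb, held 66. TGTGGT was in 37.0% of the KLF peaks when the 200 bp around the centre were searched, below the 41.8% of all peaks. Over the full peaks the 4 RUNX hexamers together were in 81.5%. The other 34 values stayed within 1.5 times the count or within the 95% interval of the main value. They include rules that returned the same 27 peaks, and the downstream windows, which held TGTGGT in 44.4%. The interval of the median score, 10.5 to 29.5, also holds the list median, so staying inside it does not show that the higher median holds. The median score was 13.4 within 100 kb and 11.1 in the regulatory domains, close to the list median of 12.1. It was 13.4 without the peaks of Klf13, 17.4 without those of Klf2 and 13.4 without both, alternatives chosen after seeing the data. Leaving out a replicate could not be done, since the replicates were pooled before the call. No paired analysis was possible because the deposited list has 1 score per peak for all samples together. Depth limits which weak regions were called, and its effect could not be measured from the list.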
